A study of Mus musculus with 2 samples.

Results

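Expression of TNF, its receptors and the proteins that couple those receptors to signaling was measured in long-term hematopoietic stem cells (LT-HSCs) of aged mice labelled wild-type or p38KO. The group held 10 genes, the ligand genes *Tnf*, *Lta* and *Ltb*, the receptor genes *Tnfrsf1a* and *Tnfrsf1b*, and the receptor-proximal genes *Tradd*, *Traf1*, *Traf2*, *Ripk1* and *Birc3*. They were taken by gene symbol from the annotation printed with the array. On each array they were represented by 13 of 55681 probes and 40 of 59305 spots. Mapped to current RefSeq symbols, the probes of the array named 22555 genes in all. Total RNA of each genotype was hybridized to 1 single-color Agilent array, so the comparison was between 2 arrays and no test between genotypes could be made. Every difference below compares these arrays, and the direction of each rests on their labels.

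Both samples came from bone marrow of C57BL/6J (Ly5.2) mice that were 2 years old. The mice labelled p38KO carried the CAG-CreERT2 transgene and p38α flox/flox alleles and were given tamoxifen (TAM) at about 1 year of age, 1 year before the cells were sorted. The other sample was labelled wild-type, and the methods of the study describe its controls as TAM-injected animals of the same age that had floxed p38α alleles but no Cre. CAG is active in nearly all tissues, so that TAM-activated Cre was not restricted to blood cells. The label of the sorted cells was CD150+CD48-Flt3-CD34- LSK, whereas the design text gave lineage-Sca-1+c-*Kit*+CD34-Flt3- and the methods added CD41- to the gate of the label. In the methods the lineage mixture held antibodies to B220, Gr-1, Mac-1, TER-119, CD8 and CD4, so that the sort was set to remove mature B, T, myeloid and erythroid cells. The number of mice behind each array was not given in the sources used here. In RNA from a sorted population, fewer cells of a type and less RNA per cell cannot be told apart.

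TNF is made as a membrane protein that is cut free as a soluble trimer, and both forms bind the receptors TNFR1 (*Tnfrsf1a*) and TNFR2 (*Tnfrsf1b*). TNFR1 recruits TRADD and the kinase RIPK1, which bring in TRAF2 and the ubiquitin ligases cIAP1 and cIAP2 (*Birc3*). The ubiquitin chains built there activate NF-κB and the MAP kinases, p38 among them, and without those chains RIPK1 can form a second complex that kills the cell. TNFR2 has no death domain and binds TRAF2 directly. In bone marrow, TNF is known as an inflammatory signal from mature blood cells that acts on HSCs, and p38 with its substrate kinase MK2 is known to raise the stability and translation of *Tnf* mRNA.

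A level is given here as the log2 signal of a probe minus the 75th percentile of log2 signals on its array, which was 7.16 for wild-type and 6.85 for p38KO. The scanner software called 37786 probes well above background on the wild-type array and 38422 on the p38KO array, and no spot was saturated. A probe that it did not call well above background is termed dim below, and a gene is termed measured where its brightest probe was dim on at most 1 array. The 2 probes of *Mapk14*, which encodes p38α, did not separate the arrays. One read 2.34 on wild-type and 2.31 on p38KO, a difference of -0.04, and the other read 2.08 and 2.03, a difference of -0.05. Whether either probe lies in the deleted exons is not given in the sources used here, so they may check nothing about the deletion. A separate check in the paper, genomic qPCR of peripheral blood cells from mice on this schedule, found *Mapk14* lower but not absent. The exon or untranslated region that each probe reads is likewise not given, and probe positions below are those printed with the array (mm9). All 13 genes of a list of LT-HSC markers were well above background on both arrays, as were 15644 of the 22555 genes named on the array. Among the 13, *Procr*, which encodes the surface protein EPCR, read 4.38 on wild-type and 3.17 on p38KO. *Slamf1*, which encodes CD150 of the sort gate, read -1.26 and -2.08.

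The genes *Tnf*, *Lta* and *Ltb* lie side by side on chromosome 17, and their promoters are shown because these neighbors differed between the arrays in unlike ways. In mm9, the probe of *Tnf* lies 3.48 kb from that of *Lta* and 3.698 kb from that of *Ltb*, with *Tnf* and *Lta* read from the minus strand and *Ltb* from the plus strand. The 250 bases before each start site were taken from RefSeq (GRCm38.p6) and are written 5′ to 3′ on the strand of the gene. They are chr17:35202008-35202257 (minus) for *Tnf*, chr17:35205352-35205601 (minus) for *Lta* and chr17:35194257-35194506 (plus) for *Ltb*. Capitals mark matches to TATAAA, to GGGCGG or to the NF-κB consensus on either strand.
Tnf: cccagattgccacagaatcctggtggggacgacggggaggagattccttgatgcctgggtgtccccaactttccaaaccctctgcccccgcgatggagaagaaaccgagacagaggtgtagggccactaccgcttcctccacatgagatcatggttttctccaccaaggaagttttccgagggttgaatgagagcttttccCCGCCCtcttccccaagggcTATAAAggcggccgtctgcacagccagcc
Lta: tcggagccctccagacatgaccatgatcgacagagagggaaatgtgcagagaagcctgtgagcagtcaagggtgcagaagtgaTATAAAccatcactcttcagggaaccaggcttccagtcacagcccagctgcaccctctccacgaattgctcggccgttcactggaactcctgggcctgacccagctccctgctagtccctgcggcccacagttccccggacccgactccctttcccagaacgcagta
Ltb: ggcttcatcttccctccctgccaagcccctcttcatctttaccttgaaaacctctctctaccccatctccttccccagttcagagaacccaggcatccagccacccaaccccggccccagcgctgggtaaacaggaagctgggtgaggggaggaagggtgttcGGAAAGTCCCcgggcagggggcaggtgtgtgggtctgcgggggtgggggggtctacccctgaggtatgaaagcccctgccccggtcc

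The *Tnf* promoter held TATAAA at -29 to -24 from the start site and CCGCCC, which is GGGCGG on the other strand, at -49 to -44. The *Lta* promoter held TATAAA farther away, at -167 to -162. The *Ltb* promoter held a match to the NF-κB consensus, GGAAAGTCCC, at -87 to -78. Promoters of 300 bases, from 250 before to 50 after the start, were found for 9 of the 10 genes, with none found for *Tradd*. The consensus of NF-κB matched in 1 of these 9 genes, against 8.46% of all 32851 promoters in the table. TATAAA was present in 2 genes (*Lta* and *Tnf*; 13.6% of all promoters) and GGGCGG in 4 genes (*Ripk1*, *Tnf*, *Tnfrsf1b* and *Traf2*; 35.7%). TGANTCA, the AP-1 site, and TGACGTCA, the CRE site, were present in 0 of the 9, against 7.81% and 1.79% of all promoters. These matches describe letters in the window and not bound factors.

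Of the 10 genes, 8 had a lower level on the p38KO array and 2 a higher one, *Tnf* and *Traf1*. Over the 17191 genes measured, 52.4% were lower and 47.6% higher. With bounds counted at their value, 0 of the 10 genes were at least 2-fold lower (6.62% of all genes), and 1, *Tnf*, was at least 2-fold higher (4.11%). *Lta*, known on p38KO only by a bound under 2-fold, could lie on either side of that line. The median difference was -0.50 on the log2 scale for the 10 genes, against -0.03 for all genes, whose middle range between quartiles ran from -0.38 to 0.33. Of the genes measured on both arrays, the nearest to the 2-fold line was *Ltb*, at 1.98-fold lower. All 10 genes were measured, 8 of them on both arrays. Of the 22555 genes named on the array, 17191 were measured, 15644 of them on both arrays. The 8 genes were 7 lower and 1 higher. *Tnf* was dim on wild-type and *Lta* was dim on p38KO, and each could differ only in the direction it did.

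**Figure D1:**
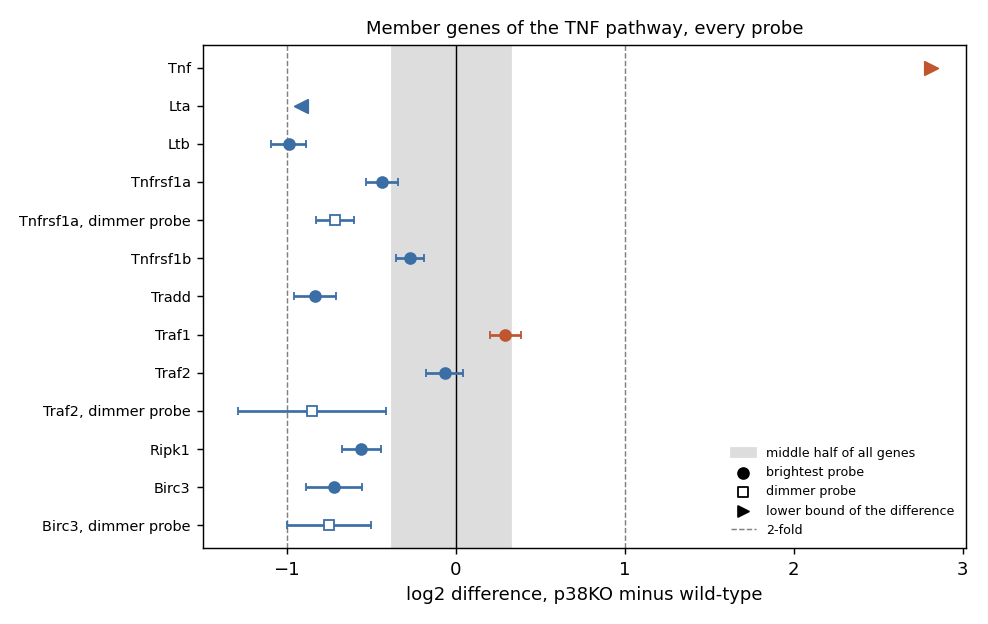
Difference in log2 level (p38KO minus wild-type) of each of the 13 probes, with filled circles for the brightest probe of a gene and open squares for dimmer probes. Bars are 1 SD of a difference between single spots of comparable brightness, triangles are lower bounds, and the gray band spans the quartiles of all genes (-0.38 to 0.33); *Tnf* stands alone on the right at a bound of 2.81, and 9 of the other 12 probes lie to the left of the band.

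*Tnf*, the cytokine that names the pathway, was well above background on p38KO but not on wild-type. Its probe, at chr17:35336795-35336854 (mm9, minus strand), was printed in 10 spots per array, of which the scanner software marked 1 on each as an outlier, leaving 9. The 9 wild-type spots had processed signals of 1.37 at the lowest, 3.23 at the median and 6.22 at the highest, and 0 of 9 were well above background. The 9 p38KO spots ran from 26.0 through a median of 33.0 to 40.7, and 9 of 9 were well above background. All p38KO spots therefore lay above all wild-type spots that were used. How often the spots of other repeated probes separate the arrays was not counted, so this separation cannot be called particular to *Tnf*. Spots within an array are not replicates of a genotype. The 1 wild-type spot marked as an outlier had a signal of 264, above every p38KO spot.

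The level of *Tnf* was -5.54 ± 0.65 (SD, n = 9 spots) on wild-type and -1.84 ± 0.22 (SD, n = 9 spots) on p38KO. Because the wild-type signal was not well above background, its level was replaced by the lowest level well above background on that array, -4.65, which gave a level at least 7.03-fold higher on p38KO (a log2 difference of at least 2.81). Of all genes, 5.11% were, like *Tnf*, dim on wild-type alone. Taking the dim signal at its own value gave 13.0-fold, and keeping the outlier spots raised the wild-type level to -4.90 with a bound of 2.85. The local background around these spots was alike on both arrays (median 16.8 and 16.5), while the mean pixel signal was 25.5 on wild-type and 51.9 on p38KO. With normexp background correction, which adds an offset of 50, the difference was 0.78, under 2-fold.

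*Lta*, which encodes lymphotoxin-α, a ligand for the same receptors when secreted, lay on the opposite side. Its probe, at chr17:35340275-35340334 (mm9, minus strand), was also printed 10 times. The 8 wild-type spots used had signals from 9.01 through a median of 10.2 to 11.9, and 8 of 8 were well above background. The 9 p38KO spots used had signals from 0.892 through 1.12 to 3.32, and 0 of 9 were. The spots marked as outliers had signals of 12.8 and 7.45 on wild-type and 1.11 on p38KO. Levels were -3.81 ± 0.15 (SD, n = 8 spots) on wild-type and -6.51 ± 0.58 (SD, n = 9 spots) on p38KO. Against the lowest level well above background on p38KO, -4.72, *Lta* was at least 1.88-fold lower, and taking the dim signal at its own value gave 6.52-fold. Of all genes, 3.89% were dim on p38KO alone. The wild-type signal was itself close to the limit, and with normexp the difference was 0.03.

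**Figure D2:**
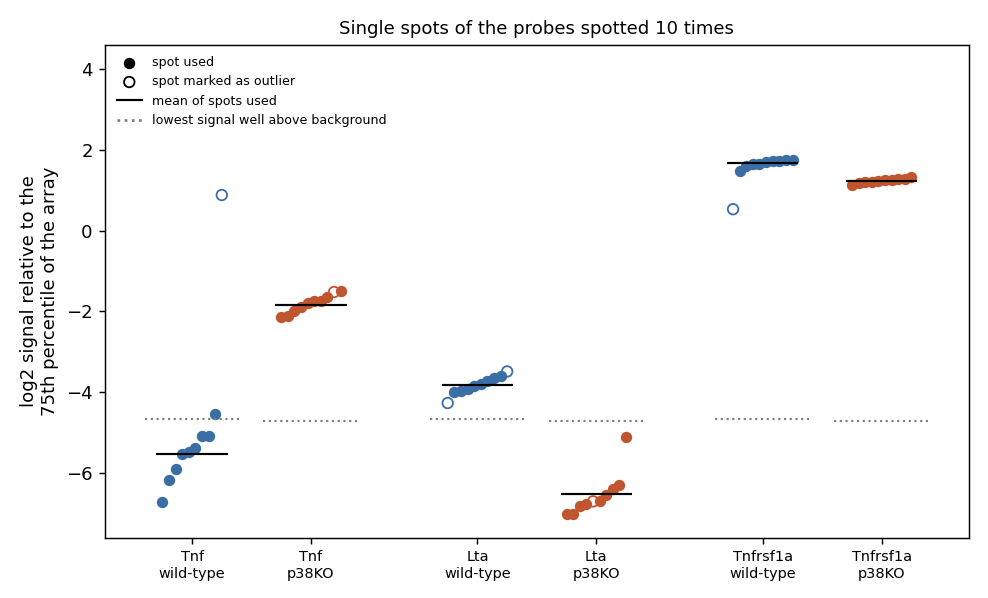
Log2 level of every spot of the 3 probes printed 10 times, for the wild-type array (blue) and the p38KO array (orange). Open circles are spots marked as outliers, and black lines are means of the spots used. Dotted lines are the lowest level well above background on each array (-4.65 and -4.72). How many of the 399 repeated probes have used spots that do not overlap between the arrays was not counted, so the gaps seen here cannot be called unusual. The outlying wild-type spot of *Tnf* lies above all p38KO spots of that probe.

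*Ltb* encodes lymphotoxin-β, the membrane partner of lymphotoxin-α in the ligand of the lymphotoxin-β receptor. Its single spot (chr17:35333097-35333156, mm9, plus strand) had a signal of 334 on wild-type and 135 on p38KO, well above background on both. The level went from 1.22 to 0.23, a difference of -0.99 ± 0.10, or 1.98-fold lower. The value after ± is here, and for every probe with 1 spot, the SD of a difference between single spots of comparable brightness, estimated from probes that each array repeats. It covers spot-to-spot error within arrays and neither error between arrays nor the spread between mice. Over the 10 ways of processing tried, the difference of *Ltb* ran from -0.99 to -0.82.

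*Tnfrsf1a*, the gene of the widely expressed death-domain receptor TNFR1, was lower on p38KO at both of its probes. The brighter probe, at chr6:125312376-125312435 (mm9), was printed 10 times. Its 9 used wild-type spots had signals from 398 through a median of 462 to 485, and its 10 p38KO spots from 250.4 through 272 to 290.2. The wild-type spot marked as an outlier, at 207, lay below all p38KO spots. Levels were 1.66 ± 0.09 (SD, n = 9 spots) and 1.23 ± 0.06 (SD, n = 10 spots), a difference of -0.43, or 1.35-fold lower. Keeping the outlier spot made the difference -0.32. The other probe, at chr6:125311922-125311981, read 0.79 on wild-type and 0.08 on p38KO, a difference of -0.71 ± 0.11, or 1.64-fold lower.

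*Tnfrsf1b* encodes TNFR2, which binds membrane-bound TNF best and is carried mainly by blood and endothelial cells. Its probe (chr4:144802359-144802418, mm9, minus strand) had a signal of 661 on wild-type and 440.1 on p38KO. The level was 2.20 and 1.93, a difference of -0.27 ± 0.08, or 1.21-fold lower. This difference exceeded the SD between spots, but like those of *Traf1* and *Traf2* it lay between the quartiles of all genes.

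*Tradd*, the death-domain adaptor that docks on TNFR1, was the adaptor with the largest difference at its brightest probe. Its probe is at chr8:107782475-107782531 (mm9, minus strand). The signal was 165 on wild-type and 74.6 on p38KO, and the level 0.21 and -0.63. The difference was -0.83 ± 0.12, or 1.78-fold lower, and -0.48 with normexp. *Ripk1*, the kinase scaffold of the same receptor complex (chr13:34125152-34125211, mm9, plus strand), had a signal of 197 on wild-type and 108 on p38KO. Its level was 0.46 and -0.10, a difference of -0.56 ± 0.11, or 1.47-fold lower. Both differences lay below the lower quartile of all genes (-0.38). They also exceeded the SD between spots, but with quartiles of -0.38 and 0.33 most of all genes differ by more than 0.12. The exact share was not counted.

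The TRAF genes of the group differed less. *Traf1*, which encodes an adaptor that binds TRAF2 and TNFR2 (probe at chr2:34798882-34798941, mm9, minus strand), had nearly the same signal on both arrays, 361 on wild-type and 355 on p38KO. After scaling by the 75th percentile, its level was 1.33 and 1.62, a difference of 0.29 ± 0.09, or 1.23-fold higher, and it stayed between 0.20 and 0.34 over the ways of processing tried. *Traf2*, which encodes the adaptor that carries the cIAP ligases to both receptors, gave unlike values at its 2 probes. The brighter probe, at chr2:25374386-25374445 (mm9), read 0.46 and 0.39, a difference of -0.06 that was smaller than its SD of 0.11. The dimmer probe, at chr2:25373541-25373600, had signals of 12.2 and 5.44, and its difference was -0.85 ± 0.44. Averaged over both probes, the difference of *Traf2* was -0.46.

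*Birc3*, which encodes the ubiquitin ligase cIAP2, was lower on p38KO at both probes by nearly the same amount. The brighter probe, at chr9:7854409-7854468 (mm9, minus strand), had a signal of 72.1 on wild-type and 35.1 on p38KO. Its level was -0.99 and -1.71, a difference of -0.72 ± 0.17, or 1.65-fold lower. The dimmer probe, at chr9:7856162-7856221, read -2.16 and -2.91, a difference of -0.75 ± 0.25, or 1.68-fold lower. Its close relative *Birc2*, which encodes cIAP1, read 0.26 on wild-type and 0.54 on p38KO, a difference of 0.28. The sequence that the brighter probe of *Birc3* detects is shown, 5′ to 3′ as printed on the array, because the closely related gene differed the other way.
Birc3 probe: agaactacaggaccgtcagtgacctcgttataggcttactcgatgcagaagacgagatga

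**Figure D3:**
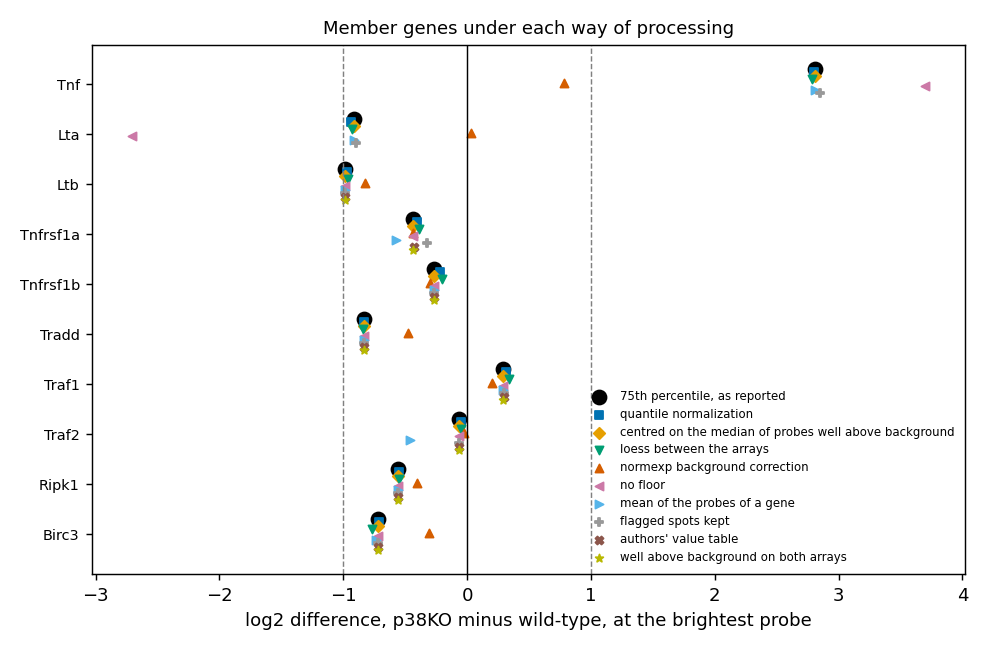
Difference in log2 level (p38KO minus wild-type) of each gene at its brightest probe under the reported processing (black circles) and 9 alternatives (colored symbols, as in the key). *Tnf* and *Lta* have no symbol for the authors' value table or for the filter on both arrays, which leave them out. The symbols of *Ltb*, *Tnfrsf1b*, *Traf1* and *Ripk1* lie close together, whereas *Tnf* runs from 0.78 to 3.70 and *Lta* from -2.70 to 0.03.

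The rest of the pathway was described with 8 lists of ligands, receptors and signaling steps, which held 110 genes other than the 10 above. Of these, 102 were measured, and 59 were lower and 43 higher, with a median difference of -0.11. By at least 2-fold, 4 were lower and 2 higher, against 6.62% and 4.11% of all genes. Among the other ligands of the family, 10 of 15 genes were measured, 4 lower and 6 higher, with a median of 0.02. *Tnfsf4*, which encodes the T cell costimulator OX40 ligand, was 3.64-fold lower (-1.86), and *Tnfsf10*, which encodes TRAIL, had a difference of -0.62. *Fasl*, the gene of the death ligand of FAS, had a difference of 0.36, and *Tnfsf9*, the gene of 4-1BB ligand, of 0.35.

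Of 26 other receptor genes, 23 were measured, with 12 lower, 11 higher and 2 at least 2-fold higher (4.11% of all genes). Their median was -0.17, and 0.08 with normexp. *Tnfrsf17*, which encodes BCMA, a receptor of plasma cells, was at least 24.6-fold higher on p38KO, the largest difference of that direction among the 17191 genes. *Tnfrsf13c*, which encodes the B cell receptor for BAFF, was 2.17-fold higher (1.12, and 1.35 at its other probe). *Tnfrsf8*, which encodes CD30, had a difference of 0.78. The lowest differences among those measured on both arrays were -0.58 for *Tnfrsf10b*, the gene of the TRAIL receptor, and -0.42 for *Tnfrsf11a*, the gene of RANK. Of the 23 genes, 5 were dim on 1 array, *Tnfrsf17* among them, and the 18 measured on both were 10 lower and 8 higher, with a median of -0.20.

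Inside the cell, no gene of the TRAF and IAP list or of the ubiquitin and kinase list was past 2-fold at its brightest probe. The 3 probes of *Traf6* ran from -0.48 to 1.19 around -0.03 at the brightest. All 11 other TRAF and IAP genes were measured on both arrays, 4 lower and 7 higher, with a median of 0.04. Their ends were *Xiap* (-0.44) and *Traf3* (-0.26) on the lower side and *Traf4* (0.64) and *Birc2* (0.28) on the higher. The 16 genes of the ubiquitin and kinase steps were 9 lower and 7 higher, with a median of -0.08. *Ikbkg*, which encodes the NEMO subunit of the IKK complex, had differences of -0.96 and -0.34 at its probes, and *Tbk1*, a kinase related to the IKKs, of -0.56. *Map3k5*, the gene of ASK1, gave 0.63 at its brightest probe and -0.40 at the other, and *Map3k7*, the gene of TAK1, gave 0.34 at its brightest probe and -1.42 at the lowest of 3.

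The death branch of TNFR1 had 9 genes, 5 lower and 4 higher, with a median of -0.14 (0.00 with normexp). *Fadd*, the adaptor that brings caspase-8 into the death complex, was 2.32-fold lower (0.94 on wild-type and -0.28 on p38KO). *Mlkl*, the pore-forming effector of necroptosis, had a difference of 0.85. *Cflar*, which encodes the caspase-8 inhibitor c-FLIP, was at 0.95 at its brightest probe, but its 4 probes ran from -0.81 to 0.95.

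Negative regulators of the pathway were mostly on the lower side. Of 12 such genes, 11 were measured on both arrays, 9 lower and 2 higher, with a median of -0.26, against 52.4% lower among all genes. *Otud7b*, a deubiquitinase, was at least 6.10-fold lower and was dim on p38KO. *Tnip3*, which encodes an A20-binding inhibitor of NF-κB, had differences of -0.84 and -1.21 at its probes, and *Nfkbia*, the gene of IκBα and itself a target of NF-κB, of -0.71. *Optn* had a difference of 0.46, and the 3 probes of *Nfkbib*, the gene of IκBβ, ran from -0.94 to 2.56 around 0.24 at the brightest.

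The 7 genes for shedding of TNF and its receptors were 5 lower and 2 higher, with a median of -0.33 and none past 2-fold. *Adam17*, the gene of the protease that releases TNF from the membrane, had a difference of 0.33. *Rhbdf2*, the gene of the iRhom2 protein that escorts that protease to the surface, had a difference of -0.86, and *Erap1*, which is tied to the shedding of TNFR1, of -0.83. *Frmd8*, the gene of another partner of the iRhom proteins, had a difference of 0.16.

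Of 14 regulators of *Tnf* mRNA, 10 were lower and 4 higher, with a median of -0.20. *Mapkapk2*, which encodes the p38 substrate MK2, had a difference of 0.30, and *Tial1*, which encodes an RNA-binding translational repressor, of 0.08. *Zc3h12a*, which encodes the RNase regnase-1, had a difference of -0.65, and *Litaf*, named for its effect on TNF transcription, of -0.62 at its brightest probe and 0.51 at the other. *Map3k8*, the gene of the kinase TPL2, was at least 2.16-fold lower, although it was 0.02 with normexp.

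None of the genes around *Tnf* was past 2-fold. Of 9 neighbors in the list, 8 were measured on both arrays, 4 lower and 4 higher, with a median of -0.03. *Apom* was at -0.76 and *Aif1*, a gene of macrophages, at -0.39. *Prrc2a* was at 0.35, and *Lst1*, a gene of myeloid cells, at 0.67 at its brightest probe and -0.54 at the other.

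**Figure D4:**
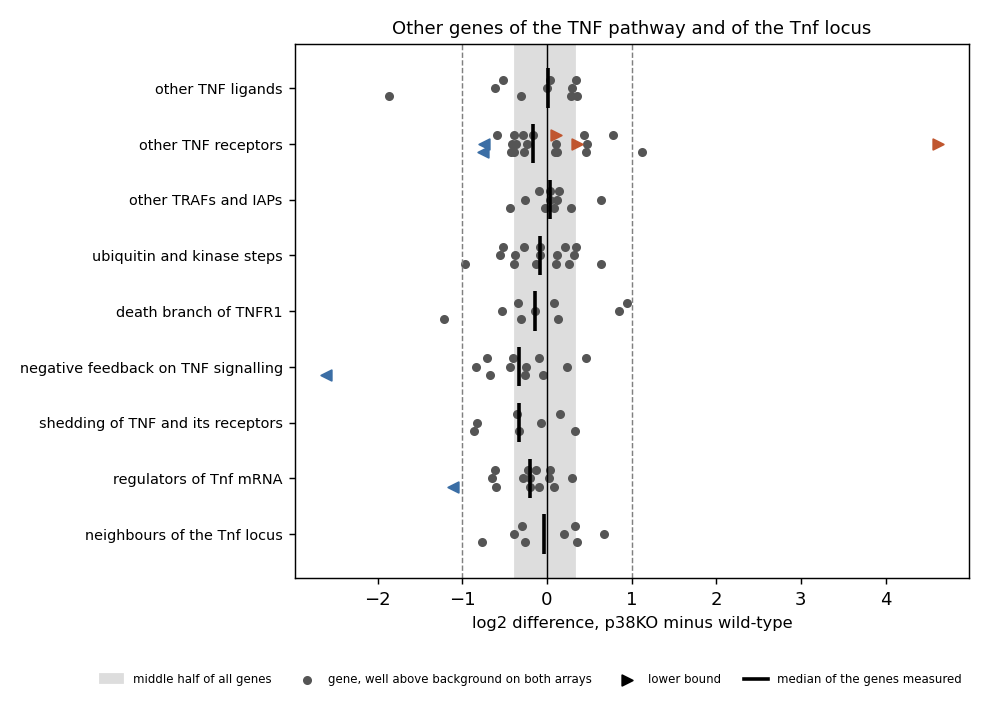
Difference in log2 level (p38KO minus wild-type) of each measured gene in 8 lists of the TNF pathway and in the list of genes around *Tnf*, with circles for genes measured on both arrays, triangles for lower bounds, black lines for list medians and a gray band for the quartiles of all genes. Medians lie between -0.33 and 0.04, and *Tnfrsf17* is the triangle farthest to the right, at 4.62.

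Mature blood cells, which the sort was set to remove, also express *Tnf*, *Lta* and *Ltb*, and lists of their marker genes were read on the same arrays. Of 11 B cell markers, 7 were measured on both arrays, all 7 higher on p38KO with a median of 0.54. *Ms4a1*, *Ebf1* and *Blk* were dim on wild-type and so could only be higher on p38KO. The summed signal of these 10 genes, each relative to the 75th percentile, was 14.7 on wild-type and 34.7 on p38KO, but 13.6 and 19.5 without *Jchain*. *Jchain*, which encodes the joining chain of IgM and IgA, was 13.5-fold higher, *Cd79a*, a subunit of the B cell receptor, was 2.40-fold higher, and Igll1 was dim on both arrays. Of 18 T and NK cell markers, 14 were measured, 4 lower and 10 higher, with a median of 0.59 and sums of 30.0 and 37.8 (18.3 and 23.3 without *Nkg7*). *Icos*, a T cell costimulator, had a difference of 3.54 and *Gzmb*, a cytotoxic granule protease, of 1.15, while *Klrb1c* was at -0.53 and *Zap70* at -4.43 and -0.03 at its probes. Cd3d, Cd3g, Cd8b1 and Ncr1 were dim on both arrays.

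Of 13 neutrophil markers, 9 were measured on both arrays, 2 lower and 7 higher, with a median of 1.18. By at least 2-fold, 6 of these 9 were higher, against 4.11% of all genes with bounds counted. With *Mmp8* and *Retnlg*, which were dim on wild-type, the summed relative signal was 7.89 on wild-type and 23.4 on p38KO, but 4.14 and 8.24 without *S100a9*. *S100a9*, which encodes a calcium-binding protein of granulocytes, was 4.04-fold higher, *Ltf*, the gene of lactoferrin, was 4.69-fold higher, *Retnlg* was at least 12.8-fold higher and *Mmp8* at least 2.74-fold higher. The granule protease genes *Elane* (-1.41) and *Prtn3* (-0.48) lay the other way, and Mmp9 and Cxcr2 were dim on both arrays. Of 13 monocyte and macrophage markers, 8 were measured on both arrays, 2 lower and 6 higher, with a median of 0.43, and with *Cx3cr1*, dim on p38KO, the sums were 213 and 279 (31.3 and 36.3 without *Itgam*). *Cd14* (0.92) and *C1qa* (0.84) were higher, *Lyz2* was at -0.96 and *Cd68* at -0.04, *Cx3cr1* was at least 3.19-fold lower, and Mrc1, Ms4a7 and C1qc were dim on both arrays.

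Of 8 mast cell and basophil markers, 5 were measured, 3 lower and 2 higher, with a median of -0.53 (0.02 with normexp). Their sums were 2.15 and 2.00, but 1.19 and 1.33 without *Tpsb2*, whose probes differed by -0.53 and 0.43. *Prss34* was at -1.04, *Hdc* at -0.94, *Cpa3* at 0.42 and *Fcer1a* at 0.11, and Mcpt8, Ms4a2 and Cma1 were dim on both arrays. Of the 13 LT-HSC markers, 12 were lower and 1 higher, with a median of -0.54 and sums of 160 and 129. *Procr* was 2.32-fold lower, and the 3 probes of *Mecom*, a transcription factor gene of HSCs, ran from -1.44 to 0.61. The sums of the B cell, T and NK cell, monocyte and neutrophil lists were all higher on p38KO, also without the gene that added most to each. Ratios of these sums, p38KO over wild-type, were 2.36, 1.26, 1.31 and 2.96 in that order, against 1.07 for all genes. Without its leading gene, the B cell sum had *Cd22* as its brightest gene, and the monocyte sum had *Csf1r*. The probes of these genes disagreed, from -0.05 to 0.54 for *Cd22* and from -2.22 to 0.76 for *Csf1r*. The median of the LT-HSC markers was near that of the TNF group (-0.50). The part of these differences in the values of *Tnf*, *Lta*, *Ltb* and the receptor genes was not tested.

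**Figure D5:**
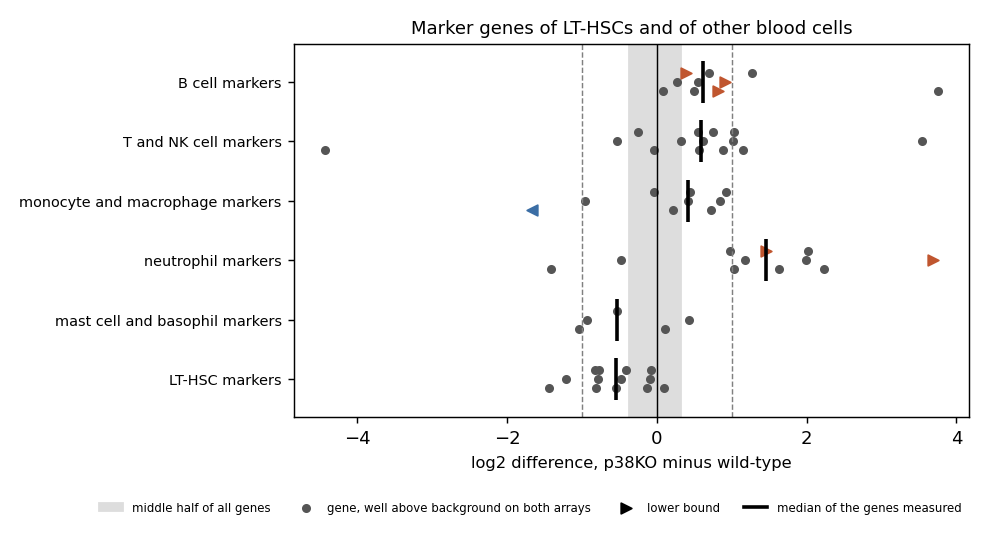
Difference in log2 level (p38KO minus wild-type) of marker genes of LT-HSCs and of other blood cells, with circles for genes measured on both arrays, triangles for lower bounds and black lines for list medians. The medians, bounds included, of B cell, T and NK cell, monocyte and neutrophil markers lie between 0.42 and 1.45, and those of mast cell and LT-HSC markers at -0.53 and -0.54.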

How the data were processed

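LT-HSC RNA of each genotype was hybridized to 1 Cy3 array. Per the submitters' processing notes, the authors used Agilent Feature Extraction 11.5.1.1, and the deposited scanner files hold, per spot, a background-subtracted intensity, flags and a p-value for signal against background. The authors' deposited value table holds log2 intensities minus a constant per array (7.16 and 6.84), equal within 0.05 to the scanner values for 100% of its 35795 probes. Other deposited columns gave names and positions. Names and positions (mm9) came from the scanner files, and current symbols from a RefSeq table (GRCm38.p6) for 31778 of 55662 probes (57.1%).

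From each log2 intensity the 75th percentile over non-control probes was subtracted (Python 3.11.15, pandas 2.3.3), after spots marked as outliers were left out (19 probes lost) and spots of a probe were averaged. A level not well above background was replaced by the lowest level well above background on that array where that was higher, which gives a bound. The brightest probe stood for a gene. Spot error came from 399 probes with at least 5 spots, whose median SD was 0.13 on either array. Arrays give no read depth, and their number limits the precision.

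All members, their probes and *Mapk14* were named, and from each of 15 lists the 2 lowest and 2 highest differences measured on both arrays and any bound past 2-fold. A few genes that this rule names are not reported here. Members and lists were chosen with earlier results of these data known. Alternatives were quantile, median and loess scaling (statsmodels 0.14.6), normexp (limma 3.58.1, R 4.3.3), the value table, a filter on both arrays, no floor, the mean of probes and all spots kept. The calculation was tested on simulated data.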

Additional observations from a re-analysis of the deposited data

How the results depend on the processing

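No paired analysis was possible because each genotype had 1 array, and for the same reason no replicate could be left out. The count of the 10 genes at least 2-fold lower, 0 as reported, was 1 (*Lta*) with no floor on dim signals. The count at least 2-fold higher, 1 (*Tnf*) as reported, was 0 with normexp, and 0 with the authors' value table or with probes well above background on both arrays, which by construction leave out *Tnf* and *Lta*. The median difference of the group, -0.50, was -0.30 with normexp and between -0.57 and -0.44 otherwise. *Map3k8* was 0.019 with normexp, against a bound of -1.11. Normexp left 125 genes at least 2-fold lower and 49 higher, against 1138 and 706, since its offset of 50 pulls dim signals together; no floor gave 1314 and 1024. Spot-to-spot error within arrays was the only error estimated for a probe. Error between arrays and the spread between mice were not measured, and *Tnf* and *Lta* lay near background on 1 array each. The medians of the gene lists and the genes named from them were recomputed under the same alternatives, and the lists' counts and sums also without genes dim on 1 array or without the leading gene of a sum, choices made after seeing the data.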
